A study of Mus musculus with 72 samples.

Results

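Interferon-stimulated genes (ISGs), the genes whose mRNA cells raise when an interferon binds its receptor, were followed over the day in liver of WT and *Scp2* KO mice. The members were 37 ISGs listed by name, with older symbols and aliases accepted, and 36 of them were measured among the 16593 genes of the array. They were covered by 57 probes, with 1 probe for 23 genes and several for the other 13, of which the brightest on average was used. *Ifi44* was named by no probe here. Total liver RNA came from males aged 10 to 12 weeks, kept in cycles of 12 h light and 12 h dark and fed only at night during the 4 days before the harvest. The KO mice lacked the *Scp2* locus in all tissues, and thus both SCP2 and SCPx, and were backcrossed into C57Bl/6, while the WT mice were C57Bl/6J. Livers were taken every 2 h from ZT0 (lights on) to ZT22, 3 per genotype and time, each hybridized to 1 Illumina BeadChip array, which gave 36 arrays per genotype and 72 in all. The columns of signals carry 6 set names, WT 6, 9 and 10 and KO 4, 5 and 6, each with 1 array at every time. The study's text speaks in one place of a harvest over consecutive days, but no source used here ties a set to a day, and what a set stands for is not given.

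Type I interferons act through the receptor IFNAR and the kinases JAK1 and TYK2, which activate a complex that holds STAT2 and IRF9 and binds the interferon-stimulated response element (ISRE). Interferon gamma acts through a receptor of its own and the GAS element, and induces IRF1. In an uninfected liver, ISG mRNAs are held at a basal level by tonic interferon signalling, and hepatocytes, Kupffer cells and endothelial cells all express them.

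Values are log2 of the normalized signal, and a difference is KO minus WT on this scale, so that a value below 0 stands for a lower signal in KO. Of 4 *Scp2* probes, 3 followed the genotype, and the clearest had 12.93 ± 0.12 in the WT arrays and 6.0 ± 0.11 in the KO arrays (SD over 36 arrays of each genotype). Median raw signals were alike, from 96.1 to 114 in WT and from 95.5 to 114 in KO. Of 5 hepatocyte markers, 3 lay in the brightest 25% of genes and the *Fgb* probe in the dimmest 25%. An array stood apart over the genes brighter than the median, WT set 6 at ZT12, with a median rank correlation of 0.931 to the others against 0.951 for the next lowest. On this array the summed signal of 7 neutrophil markers was 5306, against at most 523 on any other array, and 7 members had their highest value there (*Oasl2*, *Oas2*, *Ly6e*, *Gbp2*, *Gbp3*, *Psmb10* and *Tap1*). The share of all genes with their highest value on that array was not counted. WT set 9 also stood apart, for the ISGs themselves. Its mean was the highest of the 6 sets for 22 of the 36 members and for 15.7% of all genes, and its mean lay 0.096 above the mean of the sets for the median member.

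Of the measured ISGs, 13 were lower in KO liver and the larger number did not pass the test. In the comparison of 36 KO with 36 WT arrays, 13 of 36 members were lower (6.38% of all genes were), none was higher (5.93% of all genes were) and 23 did not pass (limma, adjusted p under 0.05). At an unadjusted p under 0.05, 20 members were lower and 0 were higher. Shares of all genes at the unadjusted threshold were not counted, here or below, so that no excess is read from such counts. The difference was below 0 for 29 of the 36, with a median of -0.075 against -0.00028 over all genes. The members and the lists below were chosen with earlier results of these data known. Counts above the share of all genes may follow in part from that choice. Of those that did not pass, *Ifit1*, *Oas1a*, *Xaf1*, *Ifih1*, *Tap1*, *Trim25*, *Cxcl10*, *Oas2* and *Rtp4* averaged 5.86 to 6.16 in WT. That is near the 6.0 of the clearest *Scp2* probe in KO, so that a weak or absent signal may hide a difference there. Those that fell were the modifier *Isg15* and its peptidase *Usp18*, the transcription factor *Irf7*, the antiviral effectors *Ifit3*, *Rsad2*, *Ly6e*, *Ifi27* and *Parp14*, the GTPases *Gbp2*, *Gbp3* and *Igtp*, and the immunoproteasome subunits *Psmb8* and *Psmb10*. The difference was beyond -0.3 for 5 of them, *Ly6e*, *Usp18*, *Ifit3*, *Rsad2* and *Igtp*. All 13 also passed without the array of WT set 6 at ZT12. Without WT set 9, 8 members were lower, namely 7 of the 13 (*Ly6e*, *Usp18*, *Ifit3*, *Isg15*, *Igtp*, *Psmb8* and *Psmb10*) and *Tap1*. The share of all genes lower without that set is not given.

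**Figure D1:**
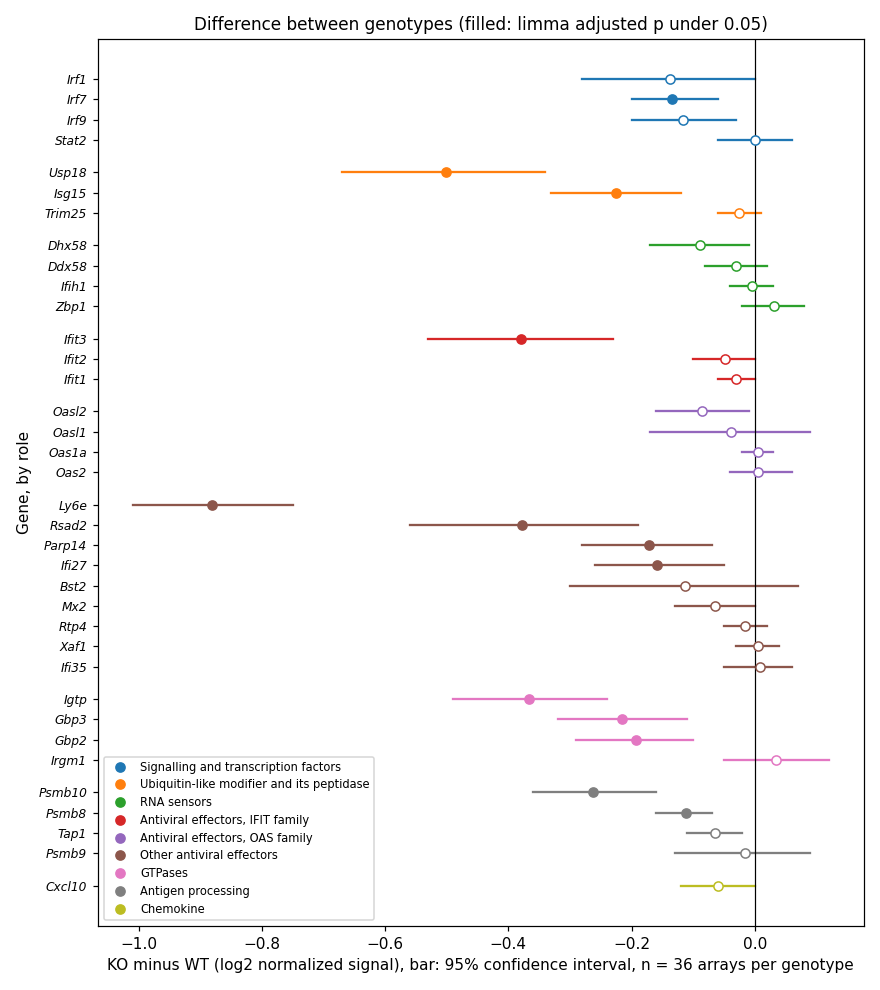
The difference between genotypes, KO minus WT in log2 normalized signal, with its 95% confidence interval (horizontal axis) for the 36 measured ISGs ordered by role (vertical axis), n = 36 arrays per genotype. Filled points mark the 13 members past the limma test, all to the left of 0, with *Ly6e* farthest out at -0.88.

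In whole liver, fewer cells of a type and less mRNA per cell cannot be told apart. Markers of some cell types were also lower in KO, as were 6.38% of all genes. Of 16 endothelial markers 7 were lower and none higher, with a summed signal from 3619 to 5684 in WT and from 3252 to 4157 in KO and none of the genes in the dimmest 25%. *Oit3* differed by -0.22 and *Clec4g* by -0.19. Of 6 stellate cell markers 3 were lower, with summed signals from 3180 to 4769 in WT and from 2747 to 3950 in KO. Of 6 markers of plasmacytoid dendritic cells, which produce interferon, only *Tcf4* was lower, and the sums were 566 to 725 in WT and 529 to 619 in KO. *Tcf4* averaged 8.22 in WT, but *Siglech*, *Ccr9*, *Klk1*, *Cox6a2* and *Pacsin1* only 5.95 to 6.10. That is near the 6.0 of the clearest *Scp2* probe in KO, so that these sums tell little about the cells. For T and NK cells 1 of 9 was lower (sums 543 to 595 in WT, 537 to 572 in KO), with *Cd8a* and *Cd4* in the dimmest 25%. All 9 averaged 5.83 to 6.05 in WT, near the same level. None of 10 Kupffer cell markers passed the limma test (0 were lower and 1 was higher at an unadjusted p under 0.05), and their sums were 972 to 4387 in WT and 995 to 2316 in KO, with *Cd5l* in the dimmest 25%. The highest WT sums of endothelial, stellate, Kupffer and T and NK cell markers all came from the array of WT set 6 at ZT12. The part of these cells in the ISG levels was not tested.

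The promoters show which members carry the letters that interferon-activated factors bind. RefSeq promoters (build GRCm38.p6, from 250 bases before to 50 bases after the start) were found for 28 of the 37 genes. *Usp18*, *Dhx58*, *Zbp1*, *Oas2*, *Mx2*, *Ly6e*, *Rtp4*, *Ifi27* and *Parp14* had no entry. Counted per gene over all entries, the ISRE core, spelled GAAA, then any 2 bases, then GAAA (or TTTC, any 2 bases and TTTC, its reverse complement), was in 14 of these 28 genes against 3.99% of all genes (3.44% of all promoters). The GAS motif TTCNNNGAA, which reads the same on both strands, was in 7 of the 28 against 9.55% of all genes (8.3% of all promoters). The ISRE core was held by 6 of 9 members that fell and by 8 of the other 19 (*Ifi44* included), and the GAS motif by 2 and 5 of these. The 250 bases before the start are shown for 5 of the members that fell, those with the largest differences among the genes with an entry and a match, with both motifs in capitals. The windows are chr19:34583279-34583528 on the + strand for *Ifit3*, chr12:26456453-26456702 on the - strand for *Rsad2*, chr11:58199306-58199555 on the + strand for *Igtp*, chr4:156200819-156201068 on the - strand for *Isg15* and chr3:142559794-142560043 on the + strand for *Gbp3*.
Ifit3: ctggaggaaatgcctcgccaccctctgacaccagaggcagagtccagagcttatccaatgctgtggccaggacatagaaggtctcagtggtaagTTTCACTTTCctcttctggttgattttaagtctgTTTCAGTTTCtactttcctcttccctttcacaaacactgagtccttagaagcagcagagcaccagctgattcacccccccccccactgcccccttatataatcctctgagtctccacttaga
Rsad2: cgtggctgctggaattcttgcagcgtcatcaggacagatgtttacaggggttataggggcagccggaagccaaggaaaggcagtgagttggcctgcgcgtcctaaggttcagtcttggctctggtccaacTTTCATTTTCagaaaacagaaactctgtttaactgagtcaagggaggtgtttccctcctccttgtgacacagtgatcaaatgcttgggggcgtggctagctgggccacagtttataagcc
Igtp: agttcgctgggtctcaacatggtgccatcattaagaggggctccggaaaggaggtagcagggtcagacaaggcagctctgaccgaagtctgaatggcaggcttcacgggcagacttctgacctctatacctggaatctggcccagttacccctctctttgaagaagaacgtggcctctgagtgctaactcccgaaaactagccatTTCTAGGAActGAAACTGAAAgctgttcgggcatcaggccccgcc
Isg15: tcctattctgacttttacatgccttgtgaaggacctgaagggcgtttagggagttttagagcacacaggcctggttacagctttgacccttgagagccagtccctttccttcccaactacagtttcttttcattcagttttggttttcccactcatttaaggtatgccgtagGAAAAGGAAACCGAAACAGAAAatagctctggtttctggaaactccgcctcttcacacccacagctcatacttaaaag
Gbp3: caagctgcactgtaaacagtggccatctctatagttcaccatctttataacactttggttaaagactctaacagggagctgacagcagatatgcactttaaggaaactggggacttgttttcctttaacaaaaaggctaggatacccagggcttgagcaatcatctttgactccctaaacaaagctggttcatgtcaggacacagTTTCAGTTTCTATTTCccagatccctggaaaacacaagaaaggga
Counted from the start, *Ifit3* held the core 2 times, at -156 and -122, and *Isg15* held it 3 times in overlapping letters between -78 and -66. *Gbp3*, for which the first of 2 entries is shown, had 2 overlapping cores at -45 and -39, *Rsad2* 1 at -120, and *Igtp* a core at -34 beside a GAS motif at -45. *Psmb10* held neither motif in this window, nor did *Irf7*. Of the members that did not pass the test, *Oas1a* held 2 overlapping cores at -20 and -14, and *Irgm1* 2 at -30 and -24.

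Among the signalling and transcription factors, *Irf7*, the factor that amplifies type I interferon production, was lower. It ran from 6.08 through a median of 6.48 to 6.79 in WT, and from 6.02 through 6.32 to 6.69 in KO. The ranges overlapped widely, with 32 of 36 KO arrays below the WT median. The difference was -0.13 ± 0.035 (SE, limma, adjusted p = 0.00391). The sets did not separate, since WT set 6 averaged 6.30 and lay below KO sets 4 (6.40) and 5 (6.35), while WT sets 9 and 10 both averaged 6.54. Leaving out KO set 6, WT set 9 or WT set 10 ended the call (differences -0.085, -0.095 and -0.095, adjusted p = 0.181, 0.112 and 0.143). *Irf9*, the DNA-binding subunit of the type I complex, differed by -0.12 ± 0.042 (adjusted p = 0.0593), and its 3 KO set means (7.33, 7.33 and 7.44) lay just below the 3 WT means (7.45, 7.45 and 7.54). It passed in 4 of 16 alternatives, with time as a factor (adjusted p = 0.00908), with dim probes left out (0.0479), without KO set 6 (0.0101) and without the KO array of set 6 at ZT6 (0.0166), which had the lowest median rank correlation over all genes (0.855, next lowest 0.857). The second probe of *Irf9* differed by -0.03 (limma over all probes, adjusted p = 0.693). *Irf1*, the main factor induced by interferon gamma, differed by -0.14 ± 0.07 (adjusted p = 0.242). Of its 5 probes another passed when every probe was tested on its own (-0.13, adjusted p = 0.00756). *Stat2* did not differ beyond its spread, at 6.64 ± 0.14 in WT and 6.64 ± 0.11 in KO, with a confidence interval from -0.06 to 0.06.

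*Usp18*, the peptidase that removes ISG15 from proteins and also dampens signalling at IFNAR, ran from 7.19 through a median of 7.79 to 8.76 in WT and from 6.68 through 7.31 to 8.0 in KO. The ranges overlapped, but 13 WT arrays lay above every KO array and 9 KO arrays below every WT array. The difference was -0.50 ± 0.083 (1.42-fold lower, limma, adjusted p = 2.1e-06). The KO sets averaged 7.24 to 7.47 and the WT sets 7.70 to 7.95, so that no set mean crossed over. Its other 2 probes differed by -0.39 and -0.16 and also passed. *Isg15*, which encodes the ubiquitin-like modifier itself, was 6.76 ± 0.26 in WT and 6.53 ± 0.18 in KO (difference -0.225 ± 0.051, adjusted p = 0.000724), with 33 of 36 KO arrays below the WT median. Its KO set means (6.45 to 6.63) came close to the WT means (6.66 to 6.85) without crossing them. *Trim25*, an E3 ligase that acts on the sensor RIG-I, differed by -0.025 ± 0.016 and did not pass. *Isg15* lies on chromosome 4 as *Scp2* does, 551 measured genes away from it, and *Ddx58* is the only other measured member on that chromosome, 318 measured genes away.

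None of the 4 RNA and DNA sensors passed the limma test, and 1 did at an unadjusted p under 0.05. *Dhx58* (LGP2), a relative of RIG-I without its signalling domain, differed by -0.089 ± 0.041 (adjusted p = 0.178). *Ddx58* (RIG-I), which senses viral RNA ends, differed by -0.031, *Ifih1* (MDA5), which senses long double-stranded RNA, by -0.005, and *Zbp1*, a sensor of nucleic acids in the Z form, by 0.031.

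The IFIT family, whose proteins bind viral RNA, was split. *Ifit3* ran from 6.96 through a median of 7.65 to 8.60 in WT and from 6.98 through 7.30 to 7.76 in KO. The lowest values of the genotypes were alike, while 16 WT arrays exceeded every KO array. The difference was -0.38 ± 0.075 (1.3-fold lower, adjusted p = 6.59e-05), with WT sets at 7.57, 7.63 and 7.92 and KO sets at 7.29, 7.33 and 7.36. The other 2 *Ifit3* probes, both dimmer, differed by -0.08 and -0.11 and passed on their own. *Ifit1* (-0.031) and *Ifit2* (-0.049) did not pass. The *Ifit1* probe lay in the dimmest 25% of genes, and a dimmer probe of *Ifit2* passed on its own (-0.06, adjusted p = 0.00991).

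None of the 4 members of the OAS family, synthetases of the oligoadenylate that activates RNase L and their relatives, passed the limma test (1 was lower at an unadjusted p under 0.05). *Oasl2* differed by -0.085 (adjusted p = 0.134), with a highest value of 7.11 on the array of WT set 6 at ZT12. *Oasl1*, *Oas1a* and *Oas2* differed by -0.039, 0.005 and 0.006, and the *Oas1a* probe lay in the dimmest 25%.

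Of the other antiviral effectors, *Ly6e*, a GPI-anchored surface protein that restricts coronavirus entry, had the largest difference of the 36 members. It ran from 8.01 through a median of 8.55 to 9.83 in WT and from 7.27 through 7.68 to 8.23 in KO. The groups barely met: 31 WT arrays lay above every KO array, 34 KO arrays lay below every WT array, and all 36 KO arrays lay below the WT median. The difference was -0.88 ± 0.064 (1.84-fold lower, 95% interval -1.01 to -0.75, adjusted p = 1.97e-19). Set means were 8.42, 8.62 and 8.72 in WT and 7.61, 7.72 and 7.79 in KO. Over 16 alternative settings and left-out sets the difference stayed between -0.965 and -0.772. The highest value, 9.83, came from the WT array of set 6 at ZT12.

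*Rsad2* (viperin), which makes a chain-terminating nucleotide, ran from 6.65 through a median of 7.53 to 8.56 in WT and from 6.53 through 7.17 to 8.09 in KO. Here 35 of 36 KO arrays lay below the WT median although the ranges overlapped. The difference was -0.38 ± 0.094 (adjusted p = 0.00214). The KO sets averaged 7.10, 7.10 and 7.11 and the WT sets 7.30, 7.42 and 7.73, and without WT set 9 the difference was -0.255 and the call was just lost (adjusted p = 0.0525). *Parp14*, a mono-ADP-ribosyltransferase, was 7.91 ± 0.27 in WT and 7.73 ± 0.18 in KO (-0.17 ± 0.053, adjusted p = 0.0186). *Ifi27*, a mitochondrial protein induced by type I interferon, was 10.66 ± 0.19 in WT and 10.51 ± 0.26 in KO (-0.16 ± 0.052, adjusted p = 0.0319), and its KO set 6 (10.58) lay above WT set 6 (10.57). Both calls were lost under median scaling and without KO set 4, KO set 5 or WT set 9, and that of *Ifi27* also without WT set 10, with adjusted p up to 0.248 for *Parp14* and 0.284 for *Ifi27*. Under median scaling the differences were as large, -0.173 for *Parp14* and -0.169 for *Ifi27*. Without WT set 9 that of *Ifi27* was -0.161, whereas that of *Parp14* shrank to -0.102, and without WT set 10 *Ifi27* was at -0.11. The other 5 effectors did not pass. *Bst2* (tetherin), which holds budding virions at the membrane, differed by -0.11 ± 0.091 with an interval from -0.30 to 0.07, and its KO set 4 (7.68) and WT set 10 (8.12) lay on opposite sides of the other sets (7.85 to 7.96). *Mx2*, a dynamin-like GTPase, differed by -0.064 and passed only without KO set 6 among the left-out sets (adjusted p = 0.0337), and *Rtp4*, *Xaf1* and *Ifi35* differed by -0.016 to 0.008.

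**Figure D2:**
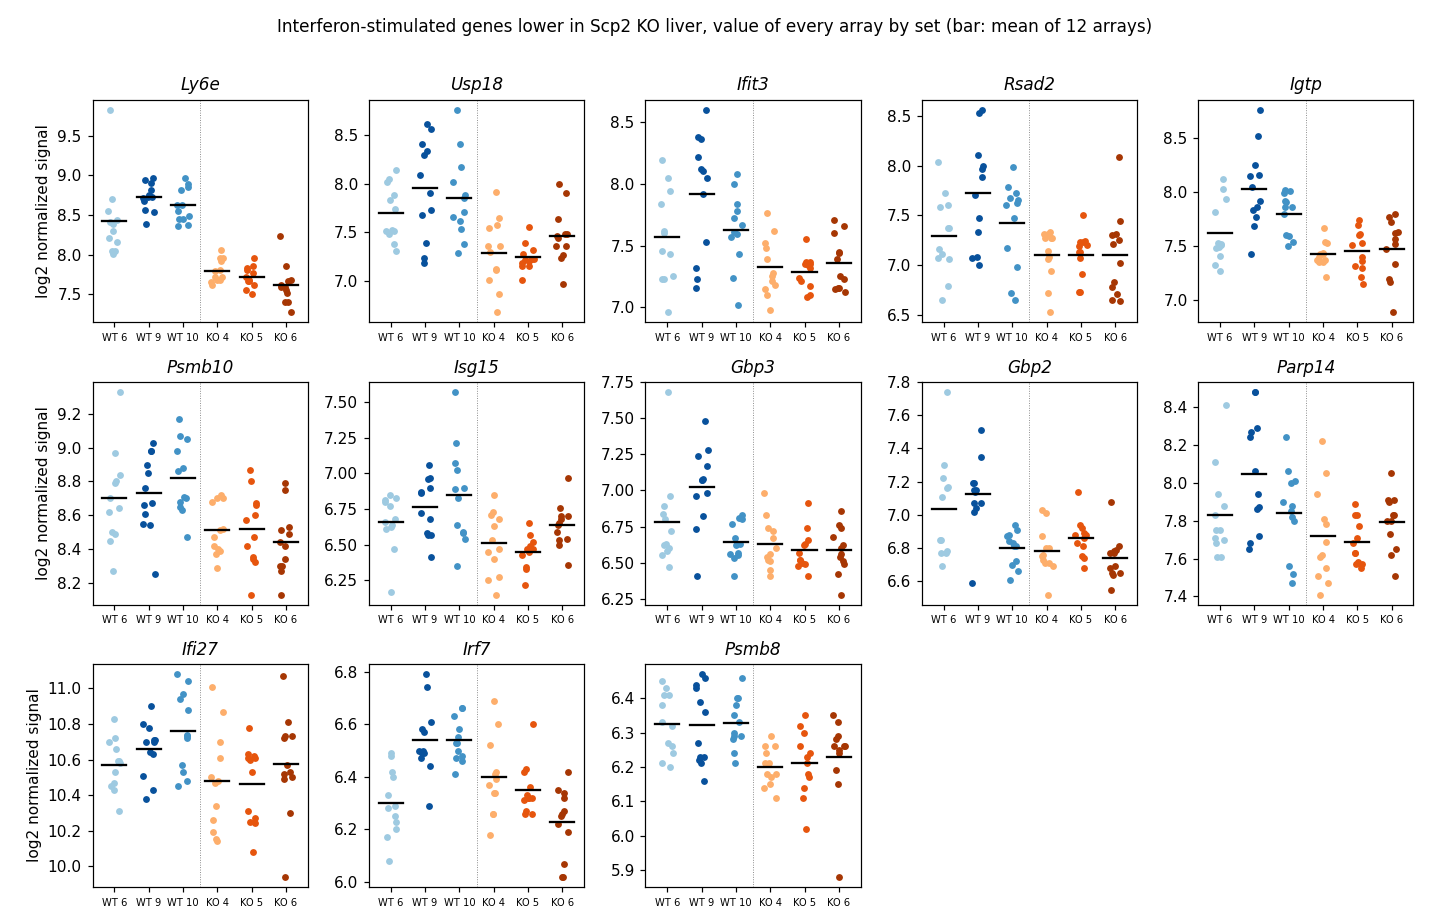
Value of each of the 72 arrays, in log2 normalized signal (vertical axis), for the 13 members lower in KO, by set (horizontal axis; WT sets in blue, KO sets in orange), with a bar at the mean of 12 arrays. *Ly6e* separates the genotypes nearly array by array, whereas *Irf7* in WT set 6 overlaps the KO sets and *Gbp3* in WT set 10 (6.65) lies at the level of KO set 4 (6.63).

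The GTPases that target the membranes around intracellular pathogens were lower except for *Irgm1*. *Igtp* (Irgm3) ran from 7.27 through a median of 7.84 to 8.76 in WT and from 6.89 through 7.43 to 7.80 in KO. All 36 KO arrays lay below the WT median and 21 WT arrays above every KO array. The difference was -0.37 ± 0.063 (1.29-fold lower, adjusted p = 5.24e-06), with KO sets at 7.43, 7.45 and 7.48 and WT sets at 7.62, 7.80 and 8.03. *Gbp3* was 6.82 ± 0.30 in WT and 6.60 ± 0.15 in KO (-0.215 ± 0.054, adjusted p = 0.00272), and *Gbp2* was 6.98 ± 0.26 and 6.79 ± 0.14 (-0.19 ± 0.048, adjusted p = 0.00234). Both guanylate-binding proteins differed more among WT sets than among KO sets. For *Gbp3*, WT set 9 averaged 7.02 against 6.65 in WT set 10, and for *Gbp2* 7.12 against 6.80, a value below KO set 5 (6.86). Without WT set 9 the differences shrank to -0.111 for *Gbp3* and -0.123 for *Gbp2* and both calls were lost (adjusted p = 0.177 and 0.106). Without KO set 6 that of *Gbp2* was -0.164 and did not pass (0.0514). The other *Gbp2* probes, both dim, differed by -0.01 and -0.03 and did not pass on their own. The second *Gbp3* probe differed by -0.15 and passed. *Irgm1*, a regulator of the other immunity-related GTPases, had a median of 10.97 in WT and 11.03 in KO, with an interval of the difference from -0.05 to 0.12.

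The immunoproteasome replaces the 3 catalytic subunits of the proteasome and shifts the peptides offered on MHC class I. *Psmb10* ran from 8.25 through a median of 8.71 to 9.33 in WT and from 8.13 through 8.47 to 8.87 in KO. The ranges overlapped, with 31 of 36 KO arrays below the WT median. The difference was -0.26 ± 0.05 (1.2-fold lower, adjusted p = 3.59e-05), WT sets averaged 8.70 to 8.82 and KO sets 8.44 to 8.52, and a second probe differed by -0.27. *Psmb8* was 6.32 ± 0.09 in WT and 6.21 ± 0.093 in KO, a small but even difference (-0.11 ± 0.021, adjusted p = 4.16e-05), with WT sets at 6.32 to 6.33 and KO sets at 6.20 to 6.23. *Psmb9*, which shares a bidirectional promoter with *Tap1*, did not differ beyond its spread (7.40 ± 0.28 in WT, 7.39 ± 0.19 in KO). *Tap1*, a chain of the peptide transporter into the endoplasmic reticulum, differed by -0.064 ± 0.023 (adjusted p = 0.0569) with all KO set means below the WT means, and passed in 3 of 16 alternatives, without WT set 9 (adjusted p = 0.0231), with time as a factor (0.027) and with dim probes left out (0.0464). *Cxcl10*, the chemokine that attracts T cells, differed by -0.06 ± 0.03 (adjusted p = 0.235).

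Counted over sets, the 3 KO means lay below the 3 WT means for 13 members, against 10.5% of all genes, and lay above them for none, against 10.2%. These were *Irf9*, *Isg15*, *Usp18*, *Ifit3*, *Oasl2*, *Rsad2*, *Ly6e*, *Parp14*, *Gbp3*, *Igtp*, *Psmb8*, *Psmb10* and *Tap1*, of which 10 had passed the limma test. An exact permutation test of 3 sets against 3 cannot go below 0.1, so that no p is given for single genes. Under median scaling the count was 8. With a set left out, separation is easier to reach: the count was 20 without WT set 6, where 15.2% of all genes were separated, and 13 without WT set 9, where 16.5% were. The KO mean was lower at all 12 times for 5 members, against 2.68% of all genes, namely *Usp18*, *Ly6e*, *Gbp2*, *Igtp* and *Psmb8*. The correlation within sets estimated over all genes was 0.0044, so that a fit with the sets as a random block hardly differed from the fit without it. That fit applies the same correlation to every gene and cannot take up set differences particular to the ISGs, such as those of WT set 9. The p-values measure the spread between these arrays only.

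**Figure D3:**
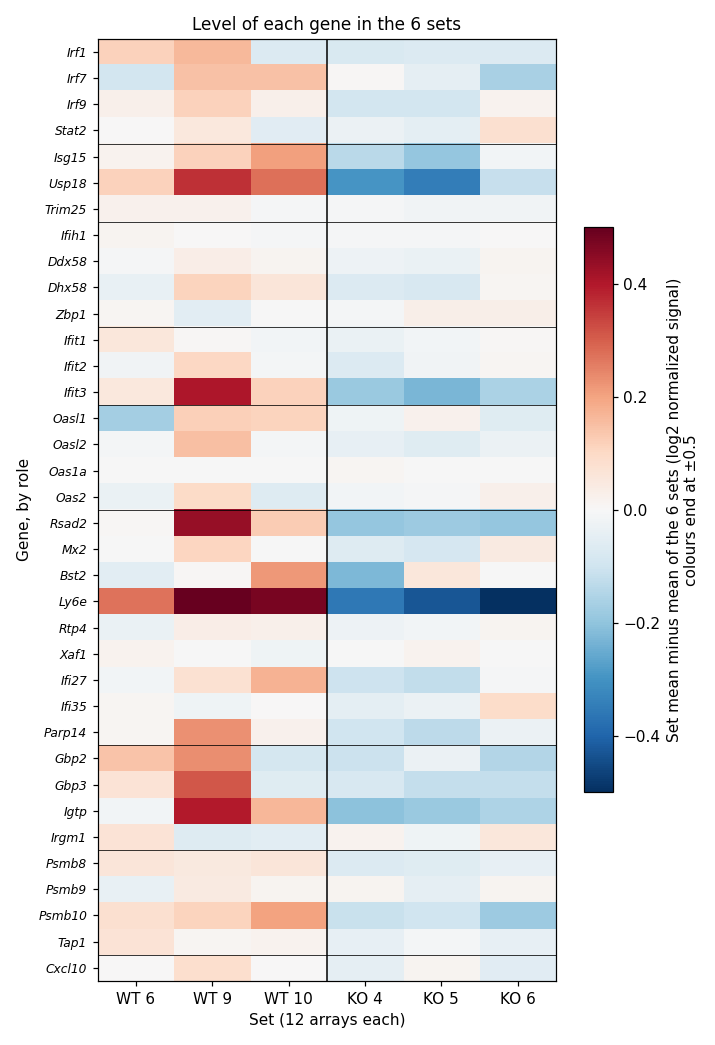
Mean of each set of 12 arrays minus the mean of the 6 sets, in log2 normalized signal (colour), for the 36 measured ISGs by role (vertical axis) and set (horizontal axis). WT set 9 has the highest mean for 22 genes, and *Ly6e*, *Usp18*, *Ifit3*, *Rsad2* and *Igtp* show the strongest contrast between WT and KO sets.

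Part of the ISG mRNAs also varied over the day. In WT, 16 of the 36 members were rhythmic (15.8% of all genes were), and in KO 9 were (13.7%), with 7 in both and 18 in either (harmonic regression with a period of 24 h, F-test, adjusted p under 0.05 over all genes). The acrophase, the time of the fitted maximum, lay between ZT0 and ZT12 for 15 of the 16 in WT, against 52.2% of all genes rhythmic in WT. Without WT set 9, 9 members were rhythmic in WT, 7 of them with an acrophase in these hours (47.7% of all genes then rhythmic), without the array of WT set 6 at ZT12 it was 17 of 18 (52.4%), and without WT set 10, 10 were. In KO the count was 2 without KO set 4 and 5 without KO set 5. With the 12 times as a factor in place of the cosine and sine, 9 were rhythmic in WT and 5 in KO. The shares of all genes rhythmic in these settings are not given. Fewer arrays or more terms can lower the count for any genes, so that no drop particular to the ISGs is read. Only 7 of the 13 members lower in KO were rhythmic in WT, and *Ly6e* was not (amplitude 0.089 ± 0.081 in WT and 0.035 ± 0.046 in KO).

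The largest amplitudes in WT were those of 3 genes of the type I response with maxima in the light phase, while most effectors, *Ly6e*, *Ifi27*, *Bst2*, *Ifit1*, *Ifit2* and *Oas2* among them, were not called rhythmic. *Rsad2* had the largest amplitude, 0.50 ± 0.08 (SE, n = 36) with the acrophase at ZT 3.43 (adjusted p = 6.98e-05), and rose from 6.79 ± 0.24 at ZT16 to 8.12 ± 0.38 at ZT6 (SD, n = 3). Its 3 WT sets peaked within 1 h of each other, at ZT 3.3, 3.3 and 3.82. *Usp18* had an amplitude of 0.42 ± 0.07 and an acrophase at ZT 6.48, from 7.31 ± 0.067 at ZT16 to 8.50 ± 0.32 at ZT8. *Ifit3* had 0.39 ± 0.074 at ZT 6.22 and *Isg15* 0.23 ± 0.048 at ZT 5.48. The WT means of *Rsad2*, *Usp18* and *Ifit3* (7.07) were lowest at ZT16, whereas that of *Isg15* was lowest at ZT20 (6.42 ± 0.22) and had risen by ZT22 (6.93 ± 0.11).

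The remaining members rhythmic in WT spread over the light phase, apart from *Stat2*. The sensors *Dhx58* (amplitude 0.21, ZT 3.6) and *Ddx58* (0.089, ZT 7.1), the factors *Irf1* (0.27, ZT 3.41) and *Irf9* (0.17, ZT 3.18) and *Parp14* (0.23, ZT 4.95) were within the same hours. *Oasl1* (0.27, ZT 0.33), *Mx2* (0.14, ZT 1.93) and *Tap1* (0.086, ZT 2.27) were earliest, while *Gbp3* (0.24, ZT 8.26) and *Psmb10* (0.25, ZT 11.7) were latest in the light phase. *Psmb9* peaked at ZT 6.1 (0.29), so that 2 subunits of the immunoproteasome had maxima several hours apart, and *Psmb8* was not rhythmic (adjusted p = 0.134). *Stat2* peaked at ZT 21.2 with an amplitude of 0.11. Calls in WT that held in each of 12 alternative settings and left-out sets were those of *Usp18*, *Ifit3*, *Rsad2*, *Dhx58*, *Psmb9* and *Psmb10*.

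**Figure D4:**
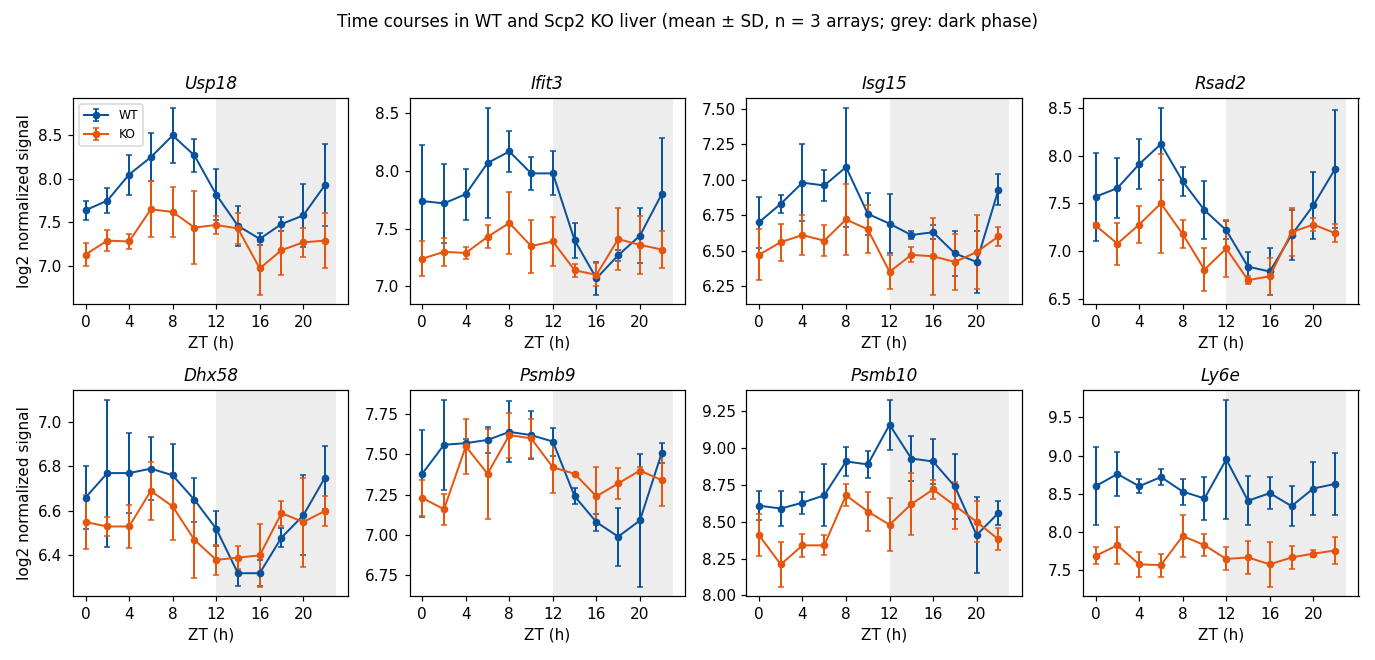
Mean ± SD of 3 arrays, in log2 normalized signal (vertical axis), against ZT in hours (horizontal axis) for 8 members in WT (blue) and KO (orange), the dark phase shaded. *Rsad2* reached 8.12 in WT and 7.5 in KO at ZT6 and lay at 6.79 and 6.74 at ZT16, and the mean of *Ly6e* was lower in KO at every time.

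In KO the fitted amplitudes were smaller for 30 of the 36 members, against 55.5% of all genes, for 29 without WT set 9, against 63%, and for 31 without the array of WT set 6 at ZT12, against 55.3%. *Rsad2* had 0.23 ± 0.062, *Usp18* 0.20 ± 0.059 and *Ifit3* 0.074 ± 0.045 in KO. *Rsad2* and *Usp18* were still rhythmic (adjusted p = 0.0251 and 0.0473), but neither was without KO set 4 or KO set 5. *Psmb10* had 0.17 ± 0.034 and *Oasl1* 0.22 ± 0.043, both rhythmic in each of 12 alternative settings and left-out sets in KO, *Psmb10* at ZT 14.2 and *Oasl1* at ZT 23.9. *Irgm1* (0.14, ZT 3.34) and *Rtp4* (0.051, ZT 18.5), not rhythmic in WT, passed in KO, *Irgm1* in 8 and *Rtp4* in 6 of 12 alternative settings and left-out sets, and neither without KO set 4 or KO set 5. The test of the difference itself passed for none of the members (limma F-test, 0.127% of all genes passed), with a smallest adjusted p of 0.151, for *Rtp4*. At an unadjusted p under 0.05, 9 members differed, among them *Ifit3* (adjusted p = 0.198), *Psmb9* (0.223), *Psmb10* (0.411), *Dhx58* (0.412), *Rsad2* (0.412) and *Usp18* (0.47). The share of all genes at this unadjusted threshold was not counted. A change of the rhythm is therefore not shown for any single member.

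Set amplitudes are described for the 16 members rhythmic in WT, whose choice by that test favours larger amplitudes in WT sets. The largest of the 6 set amplitudes lay in a WT set for 15 of them, against 77.4% of all genes rhythmic in WT, and in WT set 9 for 11, against 27.1%. For 4 of them, *Ifit3*, *Irf1*, *Psmb10* and *Rsad2*, every KO set had a smaller amplitude than every WT set, a share near that of all genes rhythmic in WT (22.6%). *Ifit3* had 0.29, 0.37 and 0.55 in WT sets 10, 6 and 9, and 0.27, 0.012 and 0.089 in KO sets 4, 5 and 6. *Rsad2* had 0.53, 0.37 and 0.60 in the same WT sets, and 0.23, 0.22 and 0.29 in the KO sets. *Usp18* overlapped, since KO set 4 (0.39) exceeded WT set 6 (0.27). On single arrays, WT set 9 at ZT6 held 19 of the 36 members among their 7 highest values of the 72 arrays, followed by the arrays of the same set at ZT8 and ZT22 with 16 each. The shares of all genes on these arrays were not counted.

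**Figure D5:**
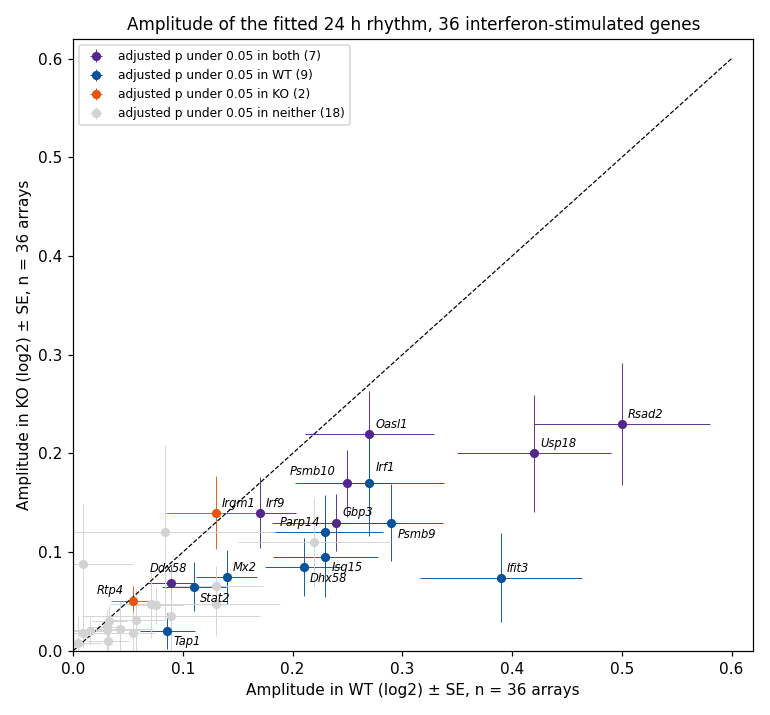
Amplitude of the fitted 24 h rhythm in KO (vertical axis) against that in WT (horizontal axis), both in log2 with SE bars, n = 36 arrays per genotype, for the 36 measured ISGs. Of all members 30 lie below the dashed line of equal amplitudes, with *Rsad2* at 0.50 in WT and 0.23 in KO and *Ifit3* at 0.39 and 0.074.

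The difference in level was uneven over the day. The median difference of the 13 lower members lay between -0.26 and -0.39 from ZT0 to ZT12 and at ZT22, and between -0.085 and -0.14 from ZT14 to ZT20, with all 13 below 0 at each of the former times. These 13 were chosen as lower over the same arrays, so that values below 0 follow in part from the choice. Over all 36 members, 34 were below 0 at ZT4 and 18 at ZT16, while the median difference over all genes was -0.001 at both times. The difference of *Ifit3* was -0.64 at ZT6 and 0.15 at ZT18, that of *Rsad2* -0.67 at ZT22 and 0.03 at ZT18, and that of *Usp18* -0.88 at ZT8 and -0.03 at ZT14. The differences of *Igtp* and *Ly6e* were below 0 at each of the 12 times, from -0.60 to -0.16 and from -1.30 to -0.58. Since the interaction was not past the threshold for these genes, these values describe the time course only.

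At single times, with 3 arrays against 3, 11 of 432 pairs of member and time passed, all lower in KO, against 0.359% of all such pairs lower and 0.505% higher (limma contrasts). An unadjusted p under 0.05 was reached by 84 pairs, and the share of all such pairs at this threshold was not counted. *Ly6e* passed at ZT0, 2, 4, 6, 12, 16 and 20, from -0.86 to -1.30, and at ZT12 the WT mean of 8.95 ± 0.78 includes the array of set 6 at 9.83. Without that array the difference at ZT12 was -0.86 ± 0.22 (adjusted p = 0.0338, 2 WT arrays). *Usp18* passed at ZT4 (8.05 ± 0.23 in WT, 7.28 ± 0.086 in KO), ZT8 (8.50 ± 0.32, 7.62 ± 0.29) and ZT10 (8.27 ± 0.19, 7.44 ± 0.42). *Psmb10* passed at ZT12, the time of its WT maximum, with 9.16 ± 0.17 in WT and 8.48 ± 0.18 in KO (-0.68 ± 0.11, adjusted p = 0.000126), and without the same array at -0.60 ± 0.13 (adjusted p = 0.00661), the 2 WT arrays left being assumed to vary like the other groups. The number of pairs was 23 without WT set 6, 6 without WT set 9, 5 without KO set 4 and 3 without KO set 5 or KO set 6. The shares over all genes without these sets are not given.

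The array-to-array variation of the members was partly shared. Of 12 pairs of members correlated per genotype after removal of set means, 4 passed in WT and 1 in KO (permutation test with 100000 resamples, two-sided, adjusted over 24 relations), and all 5 were positive. *Irf7* in WT went with *Oasl2* (r = 0.60, p = 0.00023, adjusted p = 0.00552; rho = 0.57, p = 0.00077, adjusted p = 0.0185; n = 36), with r = 0.73, 0.62 and 0.11 within sets 6, 9 and 10 and 0.54 without the 2 arrays farthest from the median of *Irf7*. For *Irf7* and *Ifit3* in WT, r was 0.53 and rho 0.47 (permutation p = 0.00246 and 0.00622, adjusted p = 0.0148 and 0.0443), r within sets was 0.68, 0.58 and 0.10, and r without 2 arrays 0.38. *Irf7* and *Usp18* in WT had r = 0.50 and rho = 0.45 (permutation p = 0.00233 and 0.00738, adjusted p = 0.0148 and 0.0443), with 0.48, 0.57 and 0.49 within sets and 0.37 without 2 arrays. *Irf1* and *Cxcl10* in WT had r = 0.50 (permutation p = 0.00548, adjusted p = 0.0263), while rho, 0.43, did not pass (permutation p = 0.0123, adjusted p = 0.059). Within sets 6, 9 and 10 their r was 0.63, 0.49 and 0.34, and without 2 arrays 0.32. In KO *Irf7* went with *Ly6e* (r = 0.50, rho = 0.51, permutation p = 0.00216 and 0.00246, adjusted p = 0.0148 and 0.0295), with r = 0.50, 0.11 and 0.70 within sets 4, 5 and 6 and 0.58 without 2 arrays. After removal of the time means as well, r of *Irf7* was 0.67 with *Oasl2* and 0.50 with *Ifit3* in WT, and 0.65 with *Ly6e* in KO. It was 0.48 with *Ly6e* in WT and 0.53 with *Isg15* in KO. Shuffling within sets does not allow for the removed time means and makes p too small, so that no p is given for these. *Irf7* with *Usp18* (r = 0.29) and *Irf1* with *Cxcl10* (r = 0.30) in WT did not pass in this setting. No pair passed without WT set 6 (0) and 2 did without WT set 9. *Psmb8* and *Psmb9* had r = -0.25 in WT and 0.23 in KO, and neither passed.

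Upstream of the ISGs, the interferons, their receptors and the kinases did not pass the test. Of 43 listed genes of interferon signalling 36 were measured, and 6 were lower and 1 was higher (6.38% and 5.93% of all genes were). None of 7 ligands, 6 receptor chains, 4 kinases and STATs or 9 sensors and adaptors passed limma (at an unadjusted p under 0.05, 0 ligands were lower and 1 higher, 1 receptor chain, *Ifngr1*, and 1 kinase, *Tyk2*, were lower and 1 sensor was higher). Of the ligands, 4 lay in the dimmest 25%, and all 7 averaged 5.79 to 6.13 in WT. The receptor chains *Ifnar1*, *Ifnlr1* and *Il10rb* averaged 5.74, 6.01 and 6.09 in WT, and the sensors *Tlr3*, *Tlr4*, *Cgas* and *Tlr7* 5.88 to 6.10. These levels are near the 6.0 of the clearest *Scp2* probe in KO, so that a weak or absent signal may hide a difference there. The 4 other interferon regulatory factors measured were all lower. *Irf5*, which drives inflammatory cytokines, fell from 6.86 ± 0.14 to 6.45 ± 0.10 (-0.40 ± 0.028), *Irf2*, an antagonist of *Irf1*, from 10.47 ± 0.31 to 10.14 ± 0.20 (-0.335 ± 0.06), and *Irf3*, the factor activated by the sensors, from 9.66 ± 0.13 to 9.45 ± 0.18 (-0.215 ± 0.037). For these 3 every KO set lay below every WT set, with *Irf5* at 6.45 to 6.47 against 6.81 to 6.90, and none of the 16 alternatives ended a call. The other 2 probes of *Irf3* differed by 0 and 0.03. *Irf8* differed by -0.054 and lost its call without the array of WT set 6 at ZT12 and without any one set other than WT set 6 (adjusted p up to 0.144). Of the inhibitors, the corepressor *Irf2bp1* (-0.13) and the SUMO ligase *Pias1* (-0.10) were lower and the phosphatase *Ptpn11* (SHP2) was higher (0.11). Their calls were lost without KO set 4 (adjusted p up to 0.0612 for *Irf2bp1*), and those of *Pias1* and *Ptpn11* also under median scaling, without WT set 6 for *Pias1* and without KO set 6 or WT set 10 for *Ptpn11*. The other probes of *Ptpn11* differed by 0.04, 0.07 and 0.02.

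A further list of 70 ISGs, of which 62 were measured, held 14 lower and 1 higher gene, with a median difference of -0.024. Of all genes 6.38% were lower and 5.93% higher. This list too was chosen with earlier results of these data known. *Cxcl9*, a chemokine induced by interferon gamma, fell from 7.64 ± 0.38 to 7.04 ± 0.27 (-0.60 ± 0.076), with WT sets at 7.41 to 7.93 and KO sets at 6.83 to 7.22. *Ifitm2* (-0.40) and *Ifitm3* (-0.27), which block viral fusion, were lower, although WT set 6 of *Ifitm3* (12.33) lay beside KO set 6 (12.34). *Samd9l* fell from 8.10 ± 0.37 to 7.71 ± 0.18 (-0.39 ± 0.068), *Irgm2* from 8.62 ± 0.39 to 8.32 ± 0.27 (-0.30 ± 0.078, call lost without WT set 9, adjusted p = 0.0809), and *Shisa5* by -0.27 ± 0.068. The other probes of *Shisa5* differed by -0.04 and -0.18. *Samd9l* and *Irgm2* were among the 18 of 62 genes of this list that were rhythmic in WT. They peaked at ZT 4 and ZT 3.29 with amplitudes of 0.36 and 0.39, and had 0.16 and 0.20 in KO. *Psme1*, a subunit of the proteasome activator PA28, was the gene that was higher, at 10.06 ± 0.13 in WT and 10.26 ± 0.14 in KO (0.20 ± 0.032), with KO sets at 10.17 to 10.34 above the WT sets at 10.01 to 10.09.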

How the data were processed

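Liver RNA of 36 WT and 36 *Scp2* KO mice was measured on Illumina BeadChip arrays. The authors deposited the intensity of 25697 probes per array without normalization, and also deposited normalized log2 values. The submitters' processing notes name Partek, with no version or settings. Intensities were corrected with normexp (offset 50), quantile normalized and taken as log2 with limma 3.58.1 in R 4.3.3. Of the probes, 23978 had 1 gene name, and the rest, with none or several, were not tested. No column lacked a sample (0). No detection p-values come with the intensities, so that no probe was called absent, and the number of arrays limits the precision.

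Genotypes were compared with limma without a term for time, single times in a model of 24 groups, and rhythms by regression on a cosine and a sine of 24 h. All p-values were adjusted over all 16593 genes with the Benjamini-Hochberg method (threshold 0.05). Correlations were computed with SciPy 1.17.1. The members and lists were chosen with earlier results of these data known. Values are given for members past the genotype test or rhythmic in either genotype, and of the other lists for up to 6 genes per direction. Tests were tried on simulated data. Same-numbered replicates in the deposited table deviated together weakly (correlation from -0.11 to 0.34 over 36 pairs, 22 over 0.1), and the numbers were not taken to pair mice. No 2 arrays were duplicates (highest Pearson correlation 0.9955). Alternatives were no background correction, median scaling, the deposited log2 values, a filter on dim probes, all probes, time as a factor, the sets or replicate numbers as a block, and leaving out each set or an array that stands apart. Leaving out the WT array of set 6 at ZT12, leaving out sets from the correlations and from the all-gene shares of separated sets, and leaving out WT set 9 from the counts of amplitudes and acrophases were chosen after seeing the data.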

Additional observations from a re-analysis of the deposited data

How the results depend on the processing

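Of 13 members lower in KO, 13 also passed with no background correction, the deposited log2 values, the filter on dim probes (13054 genes, without *Ifit1* and *Oas1a*), all probes, time as a factor, the sets as a block and without either array that stands apart, and 11 under median scaling. The fit with the sets as a block applied the same small correlation to every gene and could hardly differ from the main fit. With the replicate block on the deposited values, 13 were lower and 0 higher, as without the replicate block. Without each set in turn, the members lower were 8 to 14, rhythmic in WT 9 to 16, rhythmic in KO 2 to 9, pairs of member and time 3 to 23, members with all KO set means below the WT means 13 to 20 (14.2 to 16.5% of all genes), and correlated pairs 0 to 6. Median scaling gave 4 members rhythmic in KO, 4 pairs of member and time and 8 members with separated sets. The 12 times as a factor gave 9 rhythmic members in WT and 5 in KO. Differences near 0 changed sign for *Stat2* (-0.008 under median scaling, -0.004 without the KO array of set 6 at ZT6, -0.038 to 0.026 without a set), *Irgm1* (-0.013 with all probes), *Psmb9* (-0.036 to 0.004 without a set) and *Oasl1* (-0.133 to 0.01 without a set). The causes were not tested. Fewer arrays entered each test without a set. Apart from the shares given for separated sets, shares of all genes in these settings are not given. No drop particular to the ISGs is read from these counts.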
